A study of Mus musculus with 4 samples.

Results

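The cells described here were selected with a pericyte marker rule from single-cell RNA counts of the subdural meninges of the mouse cerebellum. Of 38722 barcodes that passed the filters, 834 met the rule (2.15%). A member had at least 3 of 7 pericyte genes detected (Rgs5, Kcnj8, Abcc9, Notch3, Higd1b, Pdgfrb and Cspg4) and at most 1 of the contractile genes Myh11, Cnn1 and Mustn1. Barcodes with a count of Ptprc, the pan-leukocyte phosphatase, or of Pecam1, an endothelial adhesion molecule, were left out. The members were thus chosen by the measured counts of these genes, whose levels are given as a description with no test.

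Pericytes are mural cells that lie within the basement membrane of capillaries and small venules. Endothelial cells recruit them by secreting PDGF-B, which binds the receptor encoded by Pdgfrb, and Notch3 signalling maintains mural cells. In the brain and its coverings they support vessel stability, the blood-brain barrier and vascular tone, and they resemble arterial smooth muscle cells but hold less of the contractile apparatus. Norrin, the product of Ndp, is secreted and acts on endothelial cells through Frizzled-4 (Fzd4) and its partner Tspan12, which leads to β-catenin signalling.

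NdpKO mice carried the genotype NdpKO; Neurod2-SmoA1+/-, and NdpWT mice were NdpWT; Neurod2-SmoA1+/-. Both genotypes therefore carried 1 copy of the transgene for an activated Smoothened receptor, driven by the Neurod2 promoter, which is active in cerebellar granule neurons, on a C57BL/6 background. The sample fields give an age of 6 to 8 days after birth and the protocol one of 7 to 9 days. Each genotype had 2 libraries made with 10x Genomics 3' chemistry, each from 5 pooled cerebella out of 3 litters, so a replicate is a pool of different animals.

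The filters kept 5696 and 10888 barcodes in NdpKO replicates 1 and 2, and 9320 and 12818 in NdpWT replicates 1 and 2, from total counts of 114363848 to 125981161 unique molecular identifiers (UMIs) per library. NdpKO replicate 1 stood apart. It kept 44.1% of its barcodes, against 64.8% to 67.0% in the other 3 libraries, and 21.8% of its barcodes exceeded the mitochondrial limit, against 7.58% to 10.4%. Over all kept barcodes Ndp was at 0.398 and 0.472 CPM (UMIs of a gene scaled to the total of its library or cell set) in NdpKO libraries, against 2.07 and 1.40 CPM in NdpWT libraries. Any pair of libraries shared 48 to 98 barcode sequences, at most 0.594% of a library. The rule found 172 and 212 members in NdpKO replicates 1 and 2, and 140 and 310 in NdpWT replicates 1 and 2. Their median depth was 33060 and 16300 UMIs in NdpKO libraries, against 16270 and 11250 UMIs in NdpWT libraries.

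The label did not hold for most members. Of the 834 cells, 708 (84.9%) had at least 3 of the 6 fibroblast markers Col1a1, Col1a2, Col3a1, Dcn, Lum and Pdgfra detected, against 22.0% to 36.9% of granule neuron lineage cells per library. Their median summed level per cell was 11710 and 8348 CPM among NdpKO members and 9546 and 8720 CPM among NdpWT members. Fibroblasts, taken as cells with at least 5 of the 6 markers and at most 1 of the 5 named pericyte markers, had medians of 10610 and 10400 CPM in NdpKO libraries and 11740 and 12490 CPM in NdpWT libraries. The granule neuron lineage, which should lack these genes, stood at 259 and 315 CPM in NdpKO libraries and 198 and 348 CPM in NdpWT libraries. Most members thus carried fibroblast collagen and proteoglycan transcripts at the level of fibroblasts, and the 834 are called marker-rule cells here.

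Pdgfrb was the gene that most members shared. It was detected in 776 of the 834 cells (93.0%), and Rgs5, a regulator of G-protein signalling, in 460 (55.2%). Pdgfrb also had a UMI in 63.6% and 63.9% of fibroblasts in NdpKO libraries and in 64.4% and 60.9% in NdpWT libraries, whereas Rgs5 had one in 4.42% and 6.28% of fibroblasts in NdpKO libraries and 5.28% and 8.50% in NdpWT libraries. The share for Rgs5 in the granule neuron lineage was 3.97% and 5.35% in NdpKO libraries and 4.03% and 9.29% in NdpWT libraries. Fibroblasts were allowed at most 1 of the named markers, so their share for Rgs5 is limited by the selection. Exactly 3 of the 7 rule genes were found in 531 members (63.7%), and all 7 in 100 (11.99%).

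The members differed in how many rule genes they held, in Rgs5 and in the fibroblast markers. Rgs5 is itself a rule gene and a named marker, so its level by marker count is in part set by the count. The 100 cells with all 7 rule genes had a median of 1652 CPM of the 6 fibroblast markers. By contrast, the 86 cells with just Notch3, Pdgfrb and Cspg4 had a median of 11440 CPM, and the 79 with just Kcnj8, Abcc9 and Pdgfrb 12940 CPM. Counting only the named markers Rgs5, Kcnj8, Abcc9, Notch3 and Higd1b, median Rgs5 was 0 CPM in the 203 cells with 1 of them and in the 367 with 2, then 377 CPM in 89 cells with 3, 5384 CPM in 60 cells with 4 and 7819 CPM in 115 cells with 5. The fibroblast median ran the other way, at 11780, 11860, 4337, 2232 and 1789 CPM for 1 to 5 named markers. Cells with exactly 3 differed by library. They were 16 and 23 cells in NdpKO libraries, with a fibroblast median of 10780 and 8210 CPM and a median Rgs5 of 0 and 254 CPM. In NdpWT libraries they were 16 and 34 cells, with a fibroblast median of 789 and 1805 CPM and a median Rgs5 of 3590 and 2456 CPM. At a limit of 1000 CPM of Rgs5, chosen after the values were seen, 250 cells (30.0%) lay above and 584 (70.0%) below, and 35 cells lay between 500 and 2000 CPM. The 250 were 22 and 62 cells in NdpKO libraries, against 41 and 125 in NdpWT libraries.

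**Figure D1:**
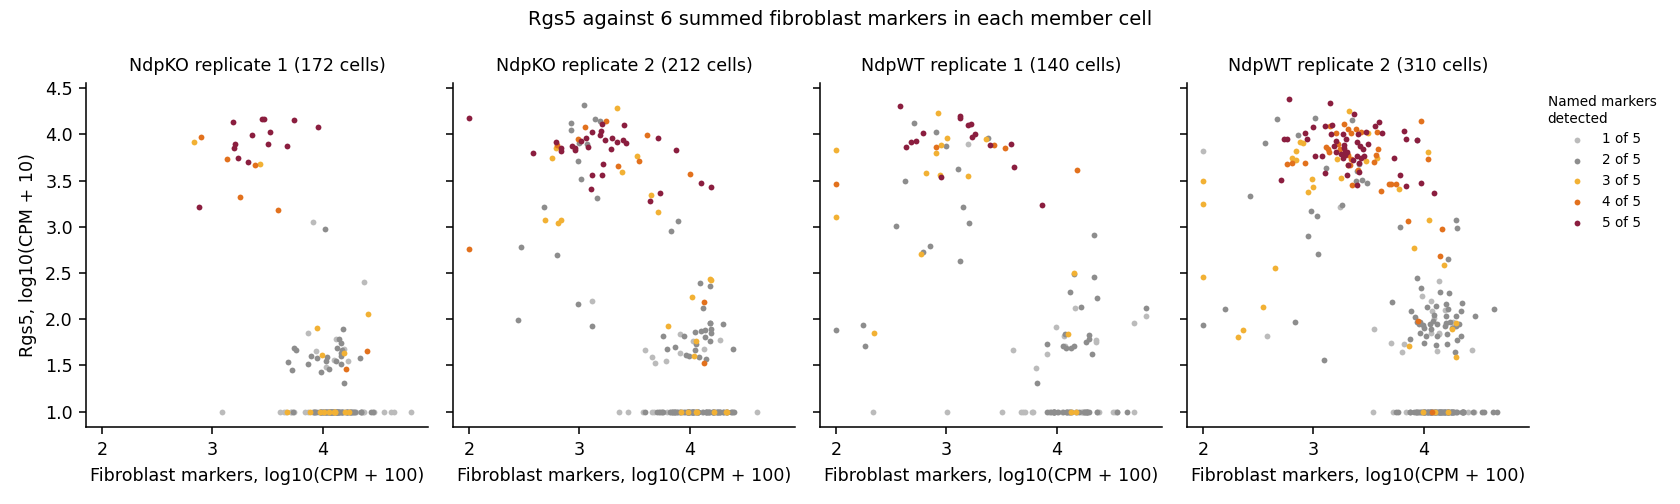
Each point is 1 marker-rule cell, with the 6 summed fibroblast markers on the horizontal axis and Rgs5 on the vertical axis (both as log10 of CPM plus the constant shown), coloured by how many of the 5 named markers were detected. Cells with 4 or 5 named markers gather at high Rgs5 and low fibroblast markers, and most cells with 1 or 2 gather at low Rgs5 and high fibroblast markers.

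Because most members failed the marker check, a stricter set is described beside the full one. The 264 members with at least 3 of the 5 named markers (31.7%) are called 3-of-5 cells. They were 37 and 66 cells in NdpKO libraries, against 37 and 124 in NdpWT libraries. Among these, 181 cells (68.6%) had at least 3 of the 6 fibroblast markers detected (56.8% to 83.8% per library), against 48.8% to 58.1% of smooth muscle cells. Their summed fibroblast level was lower than in the full set, with a median of 4640 and 2089 CPM in NdpKO libraries and 1220 and 2020 CPM in NdpWT libraries. Smooth muscle cells, taken as cells with at least 2 of Myh11, Cnn1 and Mustn1, had 1261 and 1058 CPM in NdpKO libraries and 1238 and 1065 CPM in NdpWT libraries. For the levels of single genes a further set of 175 cells with at least 4 named markers, chosen after seeing the data, is also given: 21 and 43 cells in NdpKO libraries and 21 and 90 in NdpWT libraries.

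Values just inside and just outside the limits of the rule are given as a description. Barcodes with 2 of the 7 rule genes, just outside, had fibroblast medians of 10630, 10700, 11550 and 11490 CPM in NdpKO replicates 1 and 2 and NdpWT replicates 1 and 2, and those with 3, just inside, 12760, 10310, 12730 and 11910 CPM. On the contractile side, members with 1 contractile gene had 702 and 2184 CPM of Rgs5 in NdpKO libraries and 2093 and 3079 CPM in NdpWT libraries. Cells with 2 contractile genes, just outside, had 7052 and 6560 CPM of Rgs5 in NdpKO libraries and 9221 and 6643 CPM in NdpWT libraries, so the cells excluded at this limit held more Rgs5 than those kept.

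The rule genes, as levels of UMIs summed per library, separated the sets as follows. Rgs5 stood at 2679 and 4187 CPM in 3-of-5 cells of NdpKO libraries, against 6065 and 5317 CPM in those of NdpWT libraries. The cells were selected in part by Rgs5, so no difference between genotypes is read from its level. In the cells with at least 4 named markers it was 6237 and 5896 CPM in NdpKO libraries and 8286 and 6486 CPM in NdpWT libraries. Smooth muscle cells held 3724 and 3379 CPM of Rgs5 in NdpKO libraries and 4488 and 3826 CPM in NdpWT libraries, so this gene is not particular to pericytes here.

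Kcnj8 and Abcc9 encode the pore and the sulfonylurea receptor of the vascular ATP-sensitive potassium channel and lie next to each other on the minus strand of chromosome 6 (GRCm38, from 142564837 to 142571614 for Kcnj8 and from 142587862 to 142702315 for Abcc9). Kcnj8 was at 189 and 377 CPM in 3-of-5 cells of NdpKO libraries and 457 and 361 CPM in those of NdpWT libraries. In smooth muscle cells it was at 18.5 and 37.2 CPM in NdpKO libraries and 86.0 and 35.4 CPM in NdpWT libraries. Higd1b, a gene of a hypoxia-induced protein family, was at 177 and 550 CPM in 3-of-5 cells of NdpKO libraries and 775 and 462 CPM in those of NdpWT libraries. Notch3 did not separate the mural sets: it was at 155 and 204 CPM in 3-of-5 cells of NdpKO libraries and 339 and 313 CPM in those of NdpWT libraries, and at 304 to 390 CPM in smooth muscle cells.

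**Figure D2:**
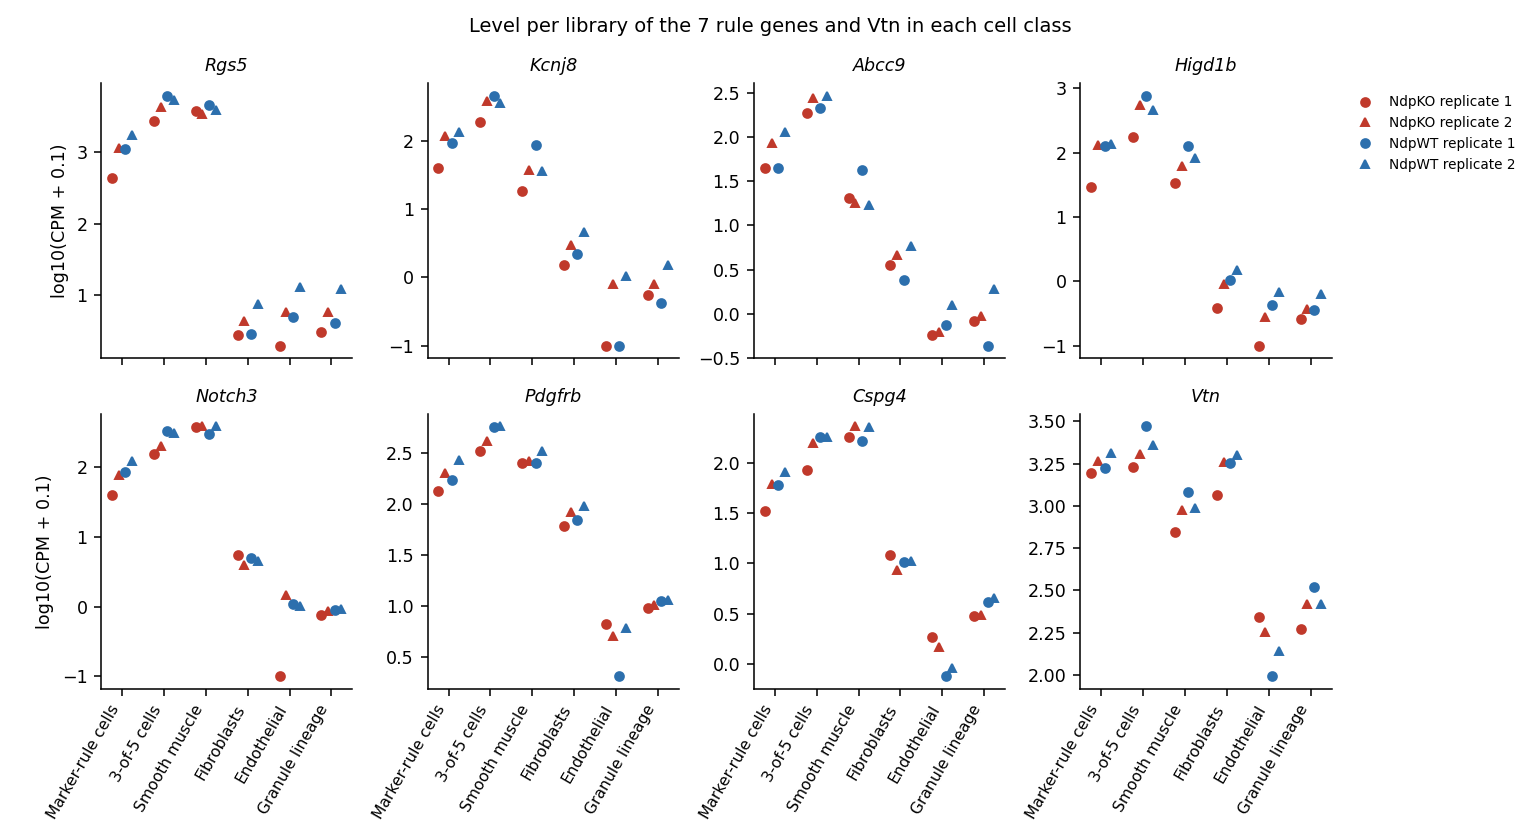
Level per library (log10 of CPM plus 0.1, UMIs summed over the cells of each class) of the 7 rule genes and Vtn in the marker-rule cells, the 3-of-5 cells and 4 other classes; red marks NdpKO and blue NdpWT, circles replicate 1 and triangles replicate 2. Kcnj8, Abcc9 and Higd1b were highest in 3-of-5 cells in every library, Rgs5 and Notch3 were as high or nearly as high in smooth muscle cells, and Vtn was at similar levels in marker-rule cells and fibroblasts.

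The share of cells that met the rule did not separate the genotypes. Marker-rule cells were 3.02% and 1.95% of kept barcodes in NdpKO libraries, against 1.502% and 2.42% in NdpWT libraries. The means were 2.48% ± 0.76 in NdpKO and 1.96% ± 0.65 in NdpWT libraries (SD, n = 2 each; exact permutation test, 2-sided, p = 0.667). With 2 against 2 libraries the smallest p this test can give is 0.333. Since the rule counts detected genes, it finds more cells at greater depth, so every barcode was also thinned to 3000 UMIs, which left out 1429 and 2845 shallower barcodes in NdpKO libraries and 2262 and 3336 in NdpWT libraries. The mean share was then 0.890% ± 0.165 in NdpKO and 1.15% ± 0.69 in NdpWT libraries (SD, n = 2 each; exact permutation test, 2-sided, p = 1.0). The order of the genotype means thus differed between all UMIs and 3000 UMIs. For 3-of-5 cells the shares were 0.628% ± 0.031 in NdpKO and 0.682% ± 0.403 in NdpWT libraries (SD, n = 2 each).

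**Figure D3:**
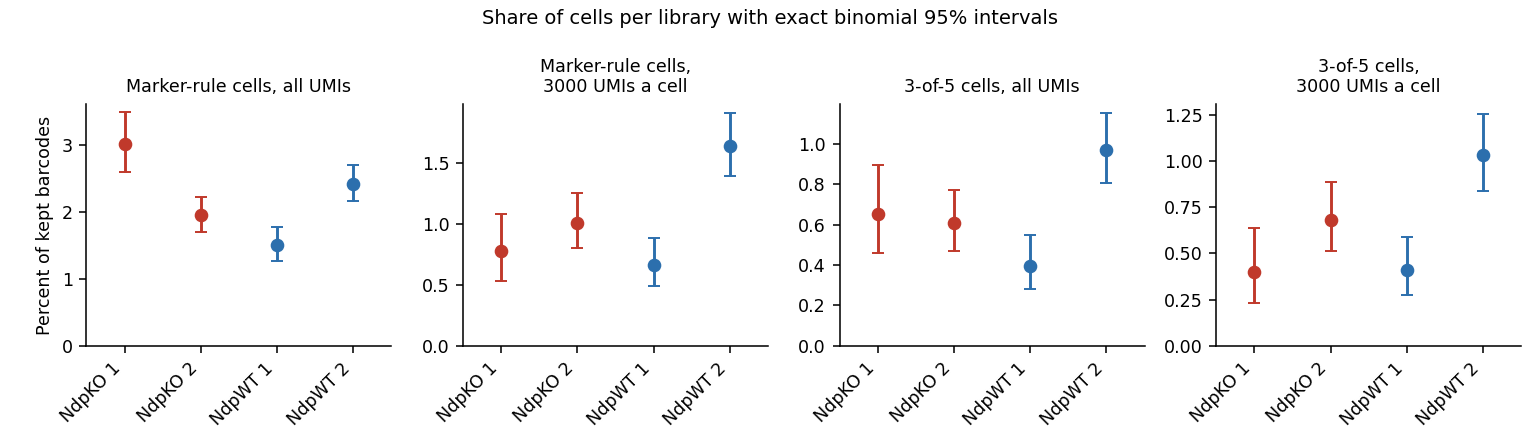
Percentage of kept barcodes per library that were marker-rule cells or 3-of-5 cells, with all UMIs and after thinning to 3000 UMIs a cell; points are libraries, red NdpKO and blue NdpWT, and bars are exact binomial 95% intervals, which cover counting error only. In each panel NdpWT replicate 2 lies above NdpWT replicate 1, and the NdpKO libraries do not lie to one side of both.

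Against smooth muscle cells, the full set of marker-rule cells differed in 3706 of 11463 genes (32.3%), 1781 higher (15.5%) and 1925 lower (16.8%), with the fibroblast proteoglycan gene Lum among the 12 genes that rose most. In the 3-of-5 cells contractile genes were mostly lower, and Vtn, Lamc3 and Cxcl12 were among the genes that were higher. UMIs summed per library and class were tested with edgeR's quasi-likelihood test with library as a block, reading no gene of the cell rules. Of 9283 genes, 1422 passed an adjusted p of 0.05 (15.3%), 627 higher (6.75%) and 795 lower (8.56%) in 3-of-5 cells. In the list of contractile genes outside the rule, 15 of 20 tested genes were lower and 1 higher. This direction is shared with the 3 contractile genes that set the classes apart, so it is given as a description. Acta2, smooth muscle actin, was at 293 and 1042 CPM in 3-of-5 cells of NdpKO libraries and 1153 and 1771 CPM in those of NdpWT libraries, and between 8595 and 12390 CPM in smooth muscle cells of the 4 libraries. Pln, the calcium pump inhibitor phospholamban, fell by 5.39 on the log2 scale (SE 0.36) and Eln, elastin, was also among the 12 genes that fell most.

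The list of pericyte genes outside the rule was split: of 27 tested, 9 were higher and 6 lower in 3-of-5 cells than in smooth muscle cells. Vtn, the secreted adhesion protein vitronectin, was 1.15 higher on the log2 scale (edgeR, adjusted p = 1.61e-07). The level of Vtn was 1687 and 2015 CPM in 3-of-5 cells of NdpKO libraries and 2910 and 2288 CPM in those of NdpWT libraries, and at 732 to 1235 CPM in smooth muscle cells. The classes did not overlap. Anpep, the surface aminopeptidase N, was 1.26 higher and Art3 2.85 higher, while Mcam, an adhesion molecule of mural and endothelial cells, fell by 1.21 on the log2 scale. Art3 also passed as higher than in fibroblasts, and Anpep did not.

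Part of the fibroblast list was also higher than in smooth muscle cells. Of 12 genes, 5 passed as higher (Col1a1, Col1a2, Col3a1, Lum and Pdgfra) and 0 as lower, and the median log2 change was 0.58. Summed, the 12 genes were at 14970 and 9181 CPM in 3-of-5 cells of NdpKO libraries, against 7603 and 5950 CPM in smooth muscle cells. In NdpWT libraries they were at 6750 and 6757 CPM, against 7260 and 6132 CPM. The sum was thus not higher in NdpWT replicate 1. The part of fibroblast transcripts in the pericyte list, basement membrane and chemokine values was not tested. Basement membrane genes were higher in 12 of 24 cases and lower in 4. Lamc3, a laminin γ chain, was at 117 and 118 CPM in 3-of-5 cells of NdpKO libraries and 139 and 149 CPM in those of NdpWT libraries, against 20.3 to 47.0 CPM in smooth muscle cells (log2 change 2.23, SE 0.16). Of the chemokine and leukocyte adhesion list, 8 of 15 tested genes were higher and 0 lower, among them the chemokine Cxcl12 (log2 change 1.57) and the microglial growth factor Il34 (0.82). Of the PDGF and Notch list, 8 of 16 tested genes were lower and 1, Pdgfra, was higher. Pdgfa, a PDGF ligand, changed by -1.66 and the Notch ligand Jag1 by -1.03 on the log2 scale. Immediate early and heat shock genes were lower in 14 of 23 cases and higher in 0. Fos, for example, was at 535 to 888 CPM in 3-of-5 cells and at 1086 to 1226 CPM in smooth muscle cells.

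Ion channels and vasoactive receptors went both ways, with 9 of 29 tested genes higher and 10 lower. Adra2a, the α2A adrenoceptor, was at 42.4 and 41.3 CPM in 3-of-5 cells of NdpKO libraries and 49.5 and 65.8 CPM in those of NdpWT libraries, against 9.52 to 11.2 CPM in smooth muscle cells. Kcnk3, a 2-pore potassium channel, was at 3.86 and 7.82 CPM in 3-of-5 cells of NdpKO libraries and 24.7 and 14.2 CPM in those of NdpWT libraries, against 62.7 to 92.6 CPM in smooth muscle cells. Gucy1a1, a subunit of the nitric oxide receptor guanylate cyclase, did not pass the test (log2 change 0.23, adjusted p = 0.642).

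Against fibroblasts, the same cells were separated by mural genes that the rule had not read. Of 14514 genes, 2484 passed (17.1%), 1157 higher (7.97%) and 1327 lower (9.14%) in 3-of-5 cells. Of the pericyte genes outside the rule, 21 of 29 tested genes were higher and 0 lower. Cox4i2, a cytochrome oxidase subunit of oxygen-sensing cells, was at 56.0 and 204 CPM in 3-of-5 cells of NdpKO libraries and 276 and 173 CPM in those of NdpWT libraries, against 0.730 to 1.48 CPM in fibroblasts (log2 change 7.17, SE 0.34). Gucy1a1 was at 280 and 473 CPM in 3-of-5 cells of NdpKO libraries and 818 and 760 CPM in those of NdpWT libraries, against 4.43 to 7.07 CPM in fibroblasts. Ndufa4l2, a mitochondrial subunit-like protein, was 3.76 higher on the log2 scale. The difference for Vtn was small, at 0.31 (adjusted p = 0.0134). Ion channels and vasoactive receptors were higher in 19 of 34 cases and lower in 2.

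Collagen IV and receptor genes were also above fibroblasts. Col4a1 and Col4a2 encode the chains of basement membrane collagen and are transcribed away from each other on chromosome 8, on the minus and the plus strand, from start sites that overlap (GRCm38, 11198423 to 11312826 and 11312805 to 11449287). They were 1.95 and 1.87 higher on the log2 scale in 3-of-5 cells. The norrin receptor genes Fzd4 and Tspan12 were 1.69 and 2.88 higher than in fibroblasts and changed by -1.12 and -0.63 relative to smooth muscle cells. Fzd4 was at 34.2 and 30.6 CPM in 3-of-5 cells of NdpKO libraries and 35.7 and 58.8 CPM in those of NdpWT libraries. The genes that were lower than in fibroblasts included Dapl1, Msln, Spp1 and the Wnt amplifier Rspo3.

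Of the genes tested against both classes, 207 were higher in 3-of-5 cells than in either, which is 33.3% of the 622 higher than smooth muscle cells and 20.02% of the 1034 higher than fibroblasts. Fam162b had the largest smaller difference of the pair. It was at 18.3 and 22.3 CPM in 3-of-5 cells of NdpKO libraries and 42.1 and 20.4 CPM in those of NdpWT libraries, against 0.0 to 3.36 CPM in smooth muscle cells, and was 5.64 higher than in fibroblasts on the log2 scale. Emcn, endomucin, was at 50.2 and 72.6 CPM in 3-of-5 cells of NdpKO libraries and 47.0 and 63.1 CPM in those of NdpWT libraries, against 4.33 to 11.9 CPM in smooth muscle cells. Emcn is an endothelial gene. The 14 endothelial markers summed to 968 and 799 CPM in 3-of-5 cells of NdpKO libraries and 705 and 769 CPM in those of NdpWT libraries, and to between 10500 and 12370 CPM in endothelial cells. The part of endothelial transcripts in this result was not tested.

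**Figure D4:**
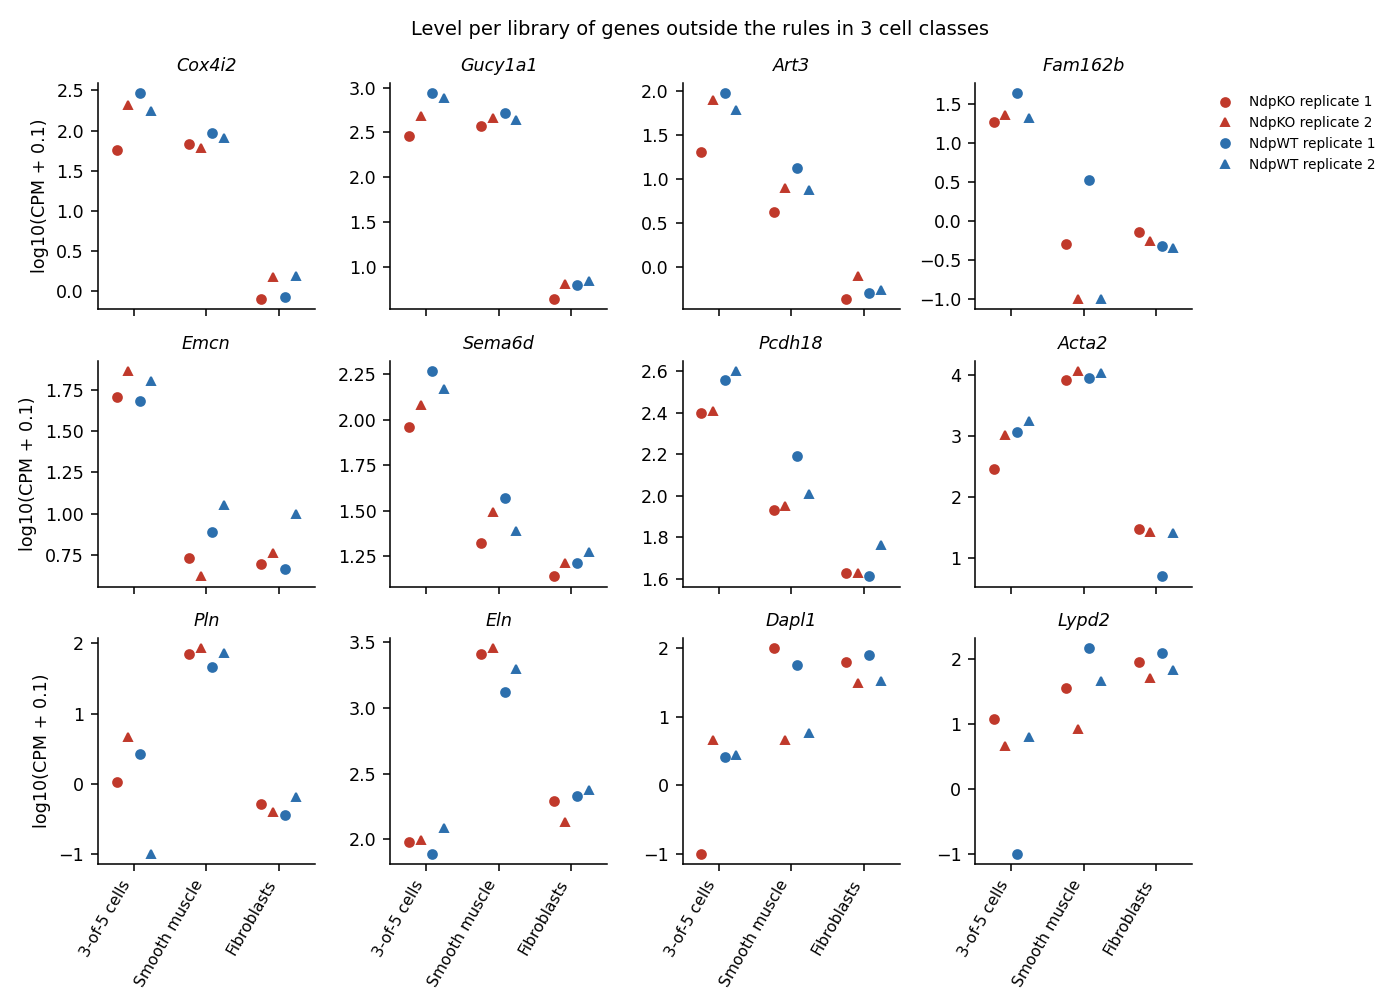
Level per library (log10 of CPM plus 0.1) of 12 genes outside the cell rules in 3-of-5 cells, smooth muscle cells and fibroblasts; red marks NdpKO and blue NdpWT, circles replicate 1 and triangles replicate 2. Fam162b, Emcn, Sema6d, Pcdh18 and Art3 were higher in 3-of-5 cells than in either other class in every library, Acta2, Pln and Eln were higher in smooth muscle cells, and Dapl1 and Lypd2 were low in 3-of-5 cells.

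Between genotypes, no gene of the full set of marker-rule cells passed the test. Of 12404 genes tested with edgeR, 0 passed an adjusted p of 0.05 (0.0%), 578 had an unadjusted p under 0.05, and DESeq2 called 6. The median log2 change of all genes was 0.0028. Gstm1, a glutathione transferase, was at 206 and 169 CPM in marker-rule cells of NdpKO libraries, against 68.1 and 77.0 CPM in those of NdpWT libraries (log2 change 1.37, SE 0.16, edgeR adjusted p = 0.233). Col15a1, a basement membrane collagen, was at 114 and 155 CPM in NdpKO libraries and 333 and 303 CPM in NdpWT libraries (log2 change -1.24, SE 0.18, edgeR adjusted p = 0.563). The groups did not overlap for either gene, which was the case for 33.5% of all genes tested. DESeq2 called Gstm1 higher and Col15a1, Ncan, Gfap, Aqp4 and Sox2 lower. Ncan, Gfap, Aqp4 and Sox2 are astroglial or progenitor genes. Ncan had 6 and 2 UMIs in NdpKO libraries, against 33 and 62 UMIs in NdpWT libraries, of which 1 cell held 57.6% in NdpWT replicate 1 and 85.5% in NdpWT replicate 2.

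Without the members that had at least 3 fibroblast markers, which left 6 and 32 cells in NdpKO libraries and 32 and 56 in NdpWT libraries, the log2 change of Gstm1 was -0.38, and those of Col4a1 and Col4a2 were 0.17 and 0.26, against -0.80 and -0.71 in all members. Col15a1 showed 0.03 in 3-of-5 cells.

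In 3-of-5 cells, 4 of 9232 genes passed the test (0.0433%), with Nnat, Wnt6 and Crabp2 higher (0.0325%) and Aqp4 lower (0.0108%) in NdpKO. An unadjusted p under 0.05 was reached by 740 genes. DESeq2 called 16, among them Nnat, Crabp2 and Aqp4. For Wnt6 it gave a log2 change of 2.53 and no adjusted p. Nnat, neuronatin, an imprinted gene of a small membrane protein (chromosome 2, 157560078 to 157562522, plus strand), was at 816 and 580 CPM in NdpKO libraries, against 197 and 125 CPM in NdpWT libraries (log2 change 2.16, SE 0.27, edgeR adjusted p = 0.0225). Wnt6, a Wnt ligand (chromosome 1, 74771892 to 74785322, plus strand), was at 79.0 and 78.2 CPM in NdpKO libraries, against 10.1 and 15.5 CPM in NdpWT libraries (log2 change 2.50, SE 0.33, edgeR adjusted p = 0.0268). Crabp2, a retinoic acid carrier (chromosome 3, 87948666 to 87953376, plus strand), was at 133.9 and 101.2 CPM in NdpKO libraries, against 30.4 and 14.6 CPM in NdpWT libraries (log2 change 2.57, SE 0.35, edgeR adjusted p = 0.0268). None of the 3 overlapped between genotypes, as was the case for 37.1% of all genes tested.

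Few cells carried these counts. Wnt6 had 79 and 68 UMIs in 10 and 13 cells of NdpKO libraries, against 4 and 17 UMIs in 3 and 6 cells of NdpWT libraries. A single cell held 58.3% and 41.1% of the Nnat UMIs in NdpKO libraries, against 55.1% and 14.6% in NdpWT libraries. In cells with at least 4 named markers, Nnat was at 112 and 621 CPM in NdpKO libraries and 226 and 89.6 CPM in NdpWT libraries, so the genotypes overlapped. There Wnt6 was at 20.5 and 33.4 CPM in NdpKO libraries, against 8.37 and 8.47 CPM in NdpWT libraries, which were 9 and 19 UMIs against 2 and 7 UMIs. A single cell held 88.9% and 68.4% of these Wnt6 UMIs in NdpKO libraries, against 100.0% and 57.1% in NdpWT libraries. Crabp2 was at 47.8 and 70.4 CPM in NdpKO libraries, against 46.0 and 14.5 CPM in NdpWT libraries. Without NdpWT replicate 2, Nnat, Wnt6 and Crabp2 no longer passed (adjusted p = 0.177, 0.177 and 0.315), and without NdpWT replicate 1 Wnt6 did not (adjusted p = 0.111).

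Aqp4, the water channel of astrocyte endfeet, was at 1.00 and 1.15 CPM in 3-of-5 cells of NdpKO libraries, against 116 and 86.5 CPM in those of NdpWT libraries (log2 change -6.35, SE 0.49, edgeR adjusted p = 0.000378). In each NdpWT library 1 cell held nearly all of it, with 45 of 46 UMIs in replicate 1 and 94 of 95 UMIs in replicate 2. The 10 astroglial markers summed to 405 and 346 CPM in NdpKO libraries, against 1674 and 482 CPM in NdpWT libraries. Aldoc and Ttyh1 were at 0 in both NdpKO libraries. The part of astroglial transcripts in the Aqp4 value was not tested.

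Fibroblast markers stood higher in NdpKO beside these genes. In the 3-of-5 cells with exactly 3 named markers, the 6 summed fibroblast markers had medians of 10780 and 8210 CPM in NdpKO libraries. The medians were 789 and 1805 CPM in NdpWT libraries. Of 12 fibroblast list genes, 12 had a log2 change above 0 in 3-of-5 cells (median 0.89, against 0.01 over all genes). An unadjusted p under 0.05 was reached by 8 of them, and 0 passed the test. Over all 9232 genes, 50.86% were above 0, and 4.419% were above 0 with an unadjusted p under 0.05. Summed, the 12 list genes were at 14970 and 9181 CPM in 3-of-5 cells of NdpKO libraries. In those of NdpWT libraries they were at 6750 and 6757 CPM. In cells with at least 4 named markers the sums were 9127 and 5456 CPM in NdpKO libraries, against 4499 and 5383 CPM in NdpWT libraries. Fibroblasts themselves held Wnt6 at 119 and 139 CPM in NdpKO libraries, against 94.8 and 113 CPM in NdpWT libraries, and Crabp2 at 353 and 285 CPM in NdpKO libraries, against 324 and 181 CPM in NdpWT libraries. Further genes in which NdpKO was higher without passing, such as the matrix genes Vcan (log2 change 1.52), Mfap5 (3.74), Igfbp5 (1.43) and Apod (1.58), are expressed by meningeal fibroblasts. The part of fibroblast transcripts in these values was not tested.

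Genes of the pericyte programme mostly had log2 changes below 0 in 3-of-5 cells, and none of them passed the test. Of 29 tested pericyte genes outside the rule, 24 had a log2 change below 0 (median -0.34), 7 of them with an unadjusted p under 0.05. Over all 9232 genes 49.1% were below 0, and 3.596% were below 0 with an unadjusted p under 0.05. Of the PDGF and Notch list, 9 of 15 were below 0, which is near that share, with Hey2, a Notch target, at -1.31 and Pdgfa at -0.87. Of 24 tested channels, calcium handling genes and vasoactive receptors, 18 were below 0 (median -0.48) and 11 had an unadjusted p under 0.05. Against fibroblasts, 21 of 29 tested pericyte genes outside the rule were higher in 3-of-5 cells and 0 lower. The 12 fibroblast list genes summed to 14970 and 9181 CPM in 3-of-5 cells of NdpKO libraries. In NdpWT libraries they summed to 6750 and 6757 CPM. The part of fibroblast transcripts in the log2 changes of these lists was not tested.

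Gucy1a1 was at 295 and 498 CPM in NdpKO libraries, against 871 and 789 CPM in NdpWT libraries (log2 change -1.06, edgeR adjusted p = 0.214). Cacna1c, the pore of the L-type calcium channel, was at 26.0 and 36.8 CPM in NdpKO libraries, against 55.7 and 75.6 CPM in NdpWT libraries (log2 change -1.11, edgeR adjusted p = 0.260). Ednra, the endothelin A receptor, had a log2 change of -0.72. For these 3 genes NdpKO replicate 1, the library with the highest fibroblast sum, was the lowest of the 4 libraries. Both NdpKO libraries lay below both NdpWT libraries, and the genotypes did not overlap for 37.1% of all genes tested.

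Basement membrane genes had a median log2 change of -0.0014 in 3-of-5 cells, with 12 of 24 tested genes above 0 and 12 below. Col4a1 was at 2062 and 2363 CPM in NdpKO libraries, against 3961 and 3822 CPM in NdpWT libraries (log2 change -0.81, edgeR adjusted p = 0.182), and Col4a2 at 1106 and 1187 CPM in NdpKO libraries, against 2070 and 1833 CPM in NdpWT libraries (log2 change -0.77, edgeR adjusted p = 0.214). Neither passed, and neither overlapped between genotypes, as was the case for 37.1% of all genes tested. With at least 4 named markers, Col4a1 was at 3663 and 2940 CPM in NdpKO libraries, against 5097 and 4515 CPM in NdpWT libraries. The part of fibroblast transcripts in these values was not tested.

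Of the norrin and Wnt list, 1 of 33 tested genes, Wnt6, passed in edgeR, and DESeq2 gave no adjusted p for it. The list went both ways, with 19 genes above 0 and 14 below (median log2 change 0.30). An unadjusted p under 0.05 was reached by 6 genes above 0 and 3 below. Over all 9232 genes, 50.86% were above 0. An unadjusted p under 0.05 was reached by 4.419% of all genes above 0 and by 3.596% below. Lef1, a transcription factor of β-catenin signalling and itself a target of it, was at 8.996 and 9.20 CPM in NdpKO libraries, against 27.8 and 29.2 CPM in NdpWT libraries (log2 change -1.64, edgeR adjusted p = 0.221). These Lef1 values rest on 9 and 8 UMIs in NdpKO libraries and 11 and 32 UMIs in NdpWT libraries. The targets Axin2 and Apcdd1 had log2 changes of -0.78 and -0.69, with edgeR adjusted p of 0.418 and 0.506. The groups did not overlap for these 3 genes, none of which passed. Over all genes tested, 37.1% did not overlap.

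The remaining lists held no gene that passed in 3-of-5 cells. Median log2 changes were 0.13 for the TGF-β and BMP pathway, 0.42 for angiogenic ligands and receptors, 0.38 for transporters, 0.16 for glycolysis and hypoxia genes, 0.23 for haem and iron handling, -0.18 for the cell cycle, -0.04 for chemokines and leukocyte adhesion, 0.01 for MHC class I and interferon genes and -0.57 for contractile genes. The 12 macrophage markers summed to 42.6 and 48.3 CPM in NdpKO libraries, against 299 and 95.5 CPM in NdpWT libraries, and the red cell markers to 20640 and 14250 CPM in NdpKO libraries, against 5847 and 23500 CPM in NdpWT libraries.

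**Figure D5:**
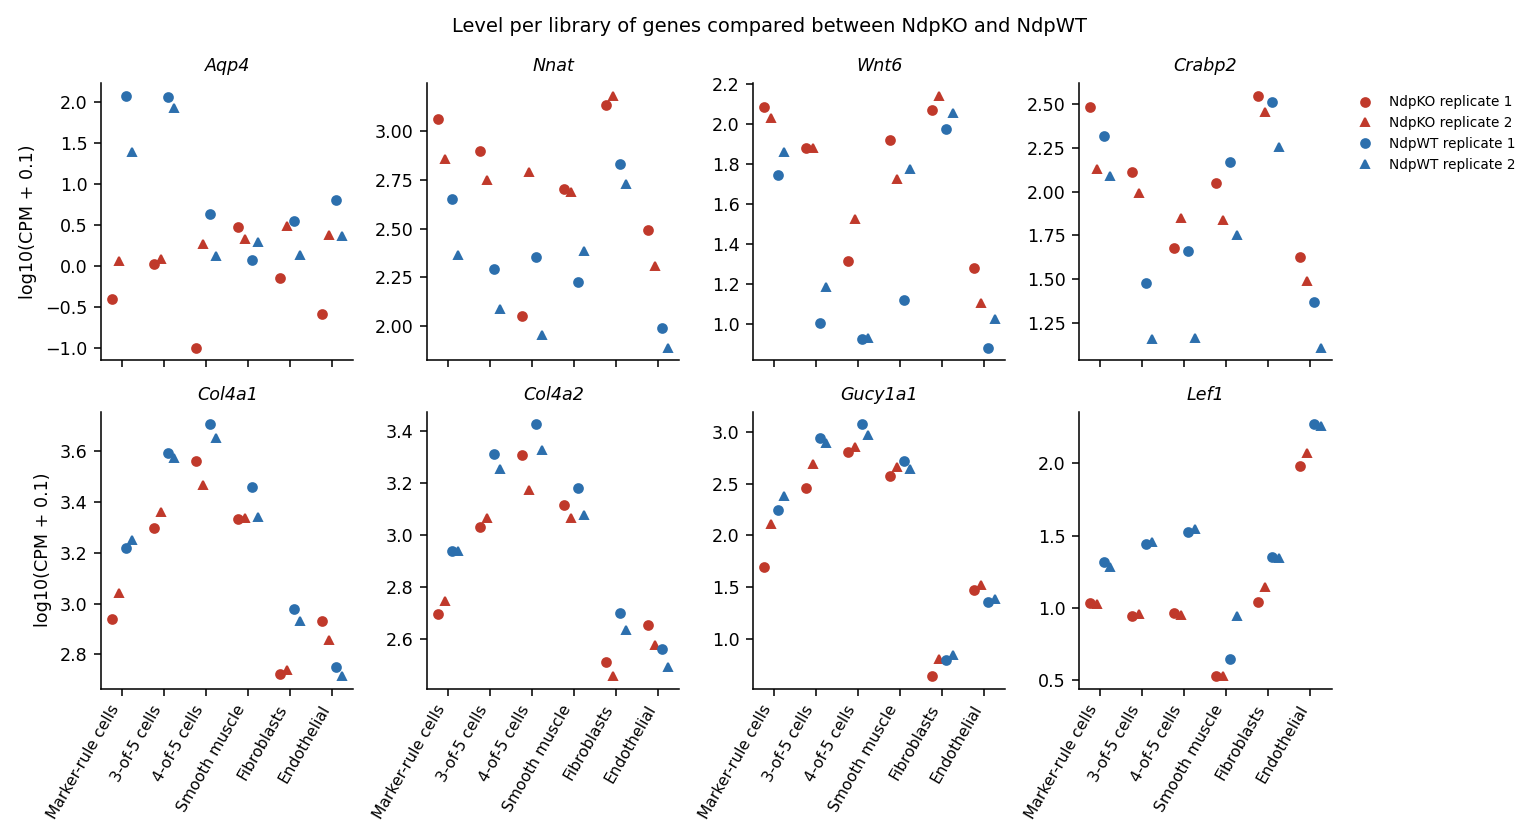
Level per library (log10 of CPM plus 0.1) of 8 genes in marker-rule cells, 3-of-5 cells, cells with at least 4 named markers and 3 other classes; red marks NdpKO and blue NdpWT, circles replicate 1 and triangles replicate 2. Aqp4 is high in NdpWT marker-rule and 3-of-5 cells and not in the cells with at least 4 named markers, Crabp2 is highest in fibroblasts, and Lef1, Col4a1, Col4a2 and Gucy1a1 are lower in NdpKO than in NdpWT in each set of members.

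Whether the genotype difference in marker-rule cells differed from that in smooth muscle cells was tested as an interaction, with library as a block. Of 12148 genes, 7 passed (0.0576%), all with a lower NdpKO over NdpWT ratio in marker-rule cells, and 522 had an unadjusted p under 0.05. Col15a1 was at 110 and 149 CPM in marker-rule cells of NdpKO libraries and 320 and 292 CPM in those of NdpWT libraries. In smooth muscle cells it was at 39.0 and 35.6 CPM in NdpKO libraries and 29.6 and 26.2 CPM in NdpWT libraries, the opposite order. Myom1, Actg2, Sorbs2, Crip1 and Ptp4a3 include contractile and sarcomeric genes that smooth muscle cells hold at far higher levels. Myom1, for example, was at 2.92 and 4.30 CPM in marker-rule cells of NdpKO libraries and 14.4 and 13.2 CPM in those of NdpWT libraries, and at 168 to 212 CPM in smooth muscle cells. The part of the mix of marker-rule cells in these interactions was not tested.

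Against endothelial cells, 145 of 13614 genes passed (1.07%), 65 with a higher (0.477%) and 80 with a lower ratio (0.588%) in marker-rule cells, and 1327 had an unadjusted p under 0.05. Fth1, the ferritin heavy chain that stores iron, was at 3379 and 3242 CPM in marker-rule cells of NdpKO libraries and 2552 and 2483 CPM in those of NdpWT libraries. In endothelial cells it was at 2438 and 2295 CPM in NdpKO libraries and 7624 and 6357 CPM in NdpWT libraries (interaction 1.95 on the log2 scale, SE 0.10). The genotypes thus stood in opposite order in the classes. Slc7a8, an amino acid transporter, and Slc40a1, the iron exporter ferroportin, had interactions of 3.45 and 2.31. In the blood-brain barrier list 5 of 19 genes passed, all with a higher ratio in marker-rule cells, and the median interaction was 1.07.

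Col4a1 and Col4a2 had interactions of -1.34 and -1.002 (edgeR adjusted p = 0.0365 and 0.0178). Col4a1 was at 861 and 1055 CPM in marker-rule cells of NdpKO libraries and 1610 and 1736 CPM in those of NdpWT libraries. In endothelial cells it was at 882 and 741 CPM in NdpKO libraries and 588 and 537 CPM in NdpWT libraries. Among Wnt targets, Apcdd1, Nkd1 and Sp5 passed with a higher ratio in marker-rule cells. Apcdd1 was at 48.2 and 52.5 CPM in marker-rule cells of NdpKO libraries and 61.9 and 64.0 CPM in those of NdpWT libraries, and in endothelial cells at 158 and 124 CPM in NdpKO libraries and 446 and 417 CPM in NdpWT libraries. Fibroblast markers also differed in endothelial cells, where they summed to 6119 and 5374 CPM in NdpKO libraries, against 3023 and 3776 CPM in NdpWT libraries. Cells with at least 1000 CPM of Rgs5 made up 12.79% and 29.25% of marker-rule cells in NdpKO libraries. They made up 29.29% and 40.32% in NdpWT libraries. Without the members that had at least 3 fibroblast markers, the genotype log2 changes of Col4a1 and Col4a2 in marker-rule cells changed sign. The part of fibroblast transcripts and of the mix of marker-rule cells in the interactions was not tested.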

How the data were processed

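Each library was deposited by the authors as a matrix of raw UMI counts for every gene in every barcode. The submitters' processing notes name Cell Ranger 6.1.2 and the mm10 build. The sources used here do not give any removal of doublets or free RNA, and free RNA was not corrected. Kept barcodes had 500 or more genes, 1000 or more UMIs and no more than 10% mitochondrial UMIs. Scrublet (scanpy 1.11.5) called 3 and 152 barcodes in NdpKO replicates 1 and 2 and 241 and 257 in NdpWT replicates 1 and 2, and 0, 3, 1 and 8 of the marker-rule cells. The calls were 0.0527% of kept barcodes in NdpKO replicate 1, against 1.40% in NdpKO replicate 2 and 2.59% and 2.01% in NdpWT replicates 1 and 2. Whether Scrublet worked in NdpKO replicate 1 was not tested. Its calls were therefore removed only as an alternative, and doublets remain.

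Cell classes were rebuilt here from marker rules, so they may not match the authors' classes. The member rule and the gene lists were chosen with earlier results of these data known. The 3-of-5 set was planned as an alternative, but fitting it as a comparison of its own, against smooth muscle cells and fibroblasts too, was decided after seeing the data.

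UMIs were summed per library and class, since cells are not replicates. Sums were tested with edgeR 4.0.16 in R 4.3.3 (quasi-likelihood test, robust, TMM factors, filterByExpr with a minimum count of 10) and Benjamini-Hochberg adjustment over all genes tested at 0.05. Class and interaction tests had library as a block. CPM beside a test use TMM factors, and CPM of rule genes, of sums and of the cells with at least 4 named markers use plain totals. Log2 changes are NdpKO over NdpWT, or 3-of-5 cells over the other class. The SE beside a log2 change was not fitted. It is the absolute log2 change divided by the square root of the quasi-likelihood F statistic. The script was tested on simulated data. Genes were named by rule: all that passed, up to 30, with the 10 lowest p in each direction between genotypes. For classes they were the 12 largest changes in each direction at 20 CPM or more and with the same sign in every library. For interactions they were up to 10 in each direction, and list members stand beside these. DESeq2 1.42.0, RLE size factors, no filter, other member rules, a replicate block and each library left out were alternatives. Members' counts differed between every pair of libraries by more than sampling noise (chi-square over its degrees of freedom, 4.52 to 15.8), and none was merged. The value was 9.53 between the NdpKO libraries and 10.3 between the NdpWT libraries. The smallest, 4.52, was between NdpKO replicate 2 and NdpWT replicate 2. Positions come from GENCODE M21 (GRCm38), in which 32158 of 32285 features matched by identifier. Intervals cover counting error only. A result for 1 gene named by the rule for interactions is not reported here.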

Additional observations from a re-analysis of the deposited data

Results flagged for a closer look

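The genes below had a genotype difference in marker-rule cells that differed from that in another class by the interaction test (edgeR, adjusted p under 0.05). Values are the NdpKO over NdpWT log2 change in marker-rule cells minus that in the other class. With RLE size factors 3 of the 7 calls against smooth muscle cells were kept. All of these calls were lost without NdpWT replicate 2 and most without NdpWT replicate 1. All were kept when either NdpKO library was left out. Most of the 145 calls against endothelial cells were lost without NdpKO replicate 1 or either NdpWT library. The genes named below for endothelial cells kept their calls in most alternatives. Against smooth muscle cells the interaction was -0.82 for Crip1, -2.03 for Myom1, -1.68 for Col15a1, -1.12 for Ptp4a3, -1.37 for Sorbs2, -2.58 for Actg2 and -7.19 for Aqp4. Aqp4 had 2 and 4 UMIs in marker-rule cells of NdpKO libraries, against 314 and 95 in those of NdpWT libraries, and RNA of astroglia in these cells was not tested as its source. Actg2 had 9 and 10 UMIs in marker-rule cells of NdpKO libraries, against 13 and 58 in those of NdpWT libraries.

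Against endothelial cells named genes with a higher ratio in marker-rule cells were Fth1 at 1.95, Slc7a8 at 3.45, Slc22a8 at 2.60, Gpcpd1 at 1.53, Rpap3 at 1.67, Abca1 at 1.31, Gstm1 at 1.45, Slc40a1 at 2.31 and Car14 at 2.88. Slc22a8 encodes an organic anion transporter of the blood-brain barrier and Abca1 a cholesterol exporter. Slc40a1 was at 84.2 and 63.1 CPM in endothelial cells of NdpKO libraries, against 277 and 224 CPM in those of NdpWT libraries, and at 4.82 to 8.25 CPM in marker-rule cells. Gstm1 was at 201 and 162 CPM in marker-rule cells of NdpKO libraries and 65.6 and 74.8 CPM in those of NdpWT libraries, and at 39.2 to 53.4 CPM in endothelial cells.

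The 10 named genes with a lower ratio in marker-rule cells were Eln at -1.28, Prkar2b at -2.23, Unc13c at -3.31, Piezo2 at -2.19, Msln at -4.13, Emp2 at -1.38, Plpp3 at -0.94, S100a10 at -1.13, Iigp1 at -1.997 and Timp2 at -0.95. Piezo2, a mechanically gated channel, was at 22.99 and 16.8 CPM in marker-rule cells of NdpKO libraries and 27.1 and 17.3 CPM in those of NdpWT libraries. In endothelial cells it was at 77.0 and 53.0 CPM in NdpKO libraries, against 14.7 and 15.04 CPM in NdpWT libraries. Elastin (Eln) was at 7247 and 4233 CPM in endothelial cells of NdpKO libraries, against 3277 and 3270 CPM in those of NdpWT libraries. Msln, a mesothelial gene, ranged from 7.79 to 34.5 CPM in marker-rule cells of NdpKO libraries and from 44.7 to 147 CPM in those of NdpWT libraries, and its UMIs in endothelial cells numbered 52 and 6 in NdpKO libraries and 2 and 8 in NdpWT libraries.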

How the results depend on the processing

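With 2 libraries per genotype, counts of calls moved with single libraries, and the cause was not tested. Genotype calls in marker-rule cells, 0 in the reported fit, were 159 with no filter on low counts (60 higher, 99 lower), 6 with DESeq2, 4 in 3-of-5 cells and 2 without members that had at least 2 endothelial markers. With libraries left out they ranged from 0 to 396 (33 without NdpKO replicate 1, 396 without NdpKO replicate 2, 0 without NdpWT replicate 1 and 20 without NdpWT replicate 2). In 3-of-5 cells the 4 calls became 263 with no filter and 16 with DESeq2, and 4 to 558 with libraries left out (30, 558, 7 and 4 in the same order, of which 4, 4, 3 and 1 were among the reported 4). Against smooth muscle cells the 7 interactions became 3 with RLE size factors, 81 with no filter and 1 to 174 with libraries left out. Against endothelial cells the 145 became 547 with no filter and 35 to 222 with libraries left out (42, 222, 35 and 104). Class calls ranged from 2625 to 3600 for marker-rule over smooth muscle cells, 767 to 1508 for 3-of-5 over smooth muscle cells (767 without NdpKO replicate 2) and 1607 to 3171 for 3-of-5 cells over fibroblasts (1607 without NdpKO replicate 2). The difference in share, 0.52 percentage points, was -0.0543 for 3-of-5 cells and -0.013 to 1.06 with libraries left out, and the thinned difference of -0.26 ranged from -0.745 to 0.224, turning without NdpWT replicate 2. Among named genes, the changes that turned in marker-rule cells were Col15a1, at 0.026 in 3-of-5 cells, and, without members with at least 3 fibroblast markers, Gstm1 (-0.38), Mest (-0.11), Col4a1 (0.17) and Col4a2 (0.26). Of the other alternatives for named genes, 810 kept their direction and either kept their side of the threshold or had no adjusted p. A further 47 lost the call and 128 gained it. The labels match runs by litter but do not say that replicate numbers mark the match. With the replicate number as a block, calls were 30 in marker-rule cells (8 higher, 22 lower) and 220 in 3-of-5 cells (130 higher, 90 lower). Deviations of same-numbered libraries from their genotype means correlated at r = 0.307 across genes. With 2 libraries per genotype the value for crossed numbers, -0.307, is fixed by the first and adds no information. RLE size factors shifted the median of all genes by -0.0048 on the log2 scale. Small sets limit the depth: the cells with at least 4 named markers held 238950 to 826081 UMIs per library.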

Other observations

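Among the named genes that rose most in the full set of marker-rule cells against smooth muscle cells were matrix, chemokine and endothelin genes. Most cells of that set carried fibroblast transcripts at the level of fibroblasts. The part of fibroblast transcripts in the values below was not tested. Lum, the proteoglycan lumican, was at 420 and 370 CPM in marker-rule cells of NdpKO libraries and 310 and 405 CPM in those of NdpWT libraries, against 17.7 to 102 CPM in smooth muscle cells. Lama1, a laminin α chain of the pial basement membrane, was at 41.4 to 77.5 CPM in marker-rule cells, against 3.91 to 11.8 CPM in smooth muscle cells. Edn3, the ligand endothelin-3, was at 99.2 to 151 CPM in marker-rule cells, against 13.0 to 30.9 CPM in smooth muscle cells. Cygb, cytoglobin, which in 3-of-5 cells was at 122 and 135 CPM in NdpKO libraries and 52.0 and 116 CPM in NdpWT libraries, was at 17.3 to 28.0 CPM in smooth muscle cells.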
